A study of Mus musculus with 12 samples.

Results

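Expression of endoplasmic reticulum chaperones and of the genes of the unfolded protein response was followed in mouse vessels over 7 days of angiotensin II. Angiotensin II is a vasoconstrictor peptide that raises blood pressure. The mice were C57BL/6 males, 8 to 10 weeks old, and were taken without an agent (day 0) or after 1, 3 or 7 days with an osmotic pump that delivered angiotensin II (1500 ng/kg/min). Each of the 4 groups had 3 arrays, which the labels call biological replicates, and all mice shared strain and sex. The labels name no vehicle pump for day 0, so the peptide and the pump operation cannot be told apart, and they do not name the vessel. The set held 33 genes, chosen by name for their role in the organelle. For each, the transcript cluster (the array's feature for a gene) that carried that symbol alone was taken, and the brightest one where there were several. This gave 31 of the 33 genes, among 30702 genes on the array. Pdia4 and Manf had clusters that also carry the symbol of another gene and were left out. A filter on dim signals kept 29 of the 31, among 22066 genes tested. Derl3 and Trib3 did not pass it.

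Secreted and membrane proteins enter the endoplasmic reticulum as they are made, and chaperones and disulfide isomerases fold them there. When folding falls behind, 3 sensors in the membrane start the unfolded protein response. IRE1, encoded by Ern1, splices Xbp1 RNA, ATF6 is cut to release a transcription factor, and both lead to transcription of chaperones and of genes that degrade misfolded proteins. PERK, encoded by Eif2ak3, phosphorylates eIF2alpha, which lowers protein synthesis but favours translation of ATF4, a transcription factor of amino acid and stress genes. Vessel wall cells that make collagen and other matrix proteins use the same folding machinery. IRE1, PERK and ATF6 are switched on by splicing, phosphorylation and cleavage, and signals summed over a gene do not read these steps.

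The promoter sequences show letters that are known as response elements of this pathway, and they are printed for the genes whose signals are described. The sequences are from RefSeq, build GRCm38.p6, in windows from 250 bases before to 50 bases after each start, and 30 of the 33 members had a window. All are written 5′ to 3′ on the strand of the gene, with the matched letters in capitals. The element ERSE, which ATF6 and XBP1 bind with NF-Y, was searched on both strands as CCAAT, 9 bases of any kind and CCACG. In the folding genes with the largest day 3 signals relative to day 0, and in 1 gene that misses the call, the matches were:
Hspa5, chr2:34772015-34772053, plus strand: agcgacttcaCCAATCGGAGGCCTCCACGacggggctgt
Pdia6, chr12:17266481-17266519, plus strand: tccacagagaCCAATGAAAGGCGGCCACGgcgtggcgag
Creld2, chr15:88819510-88819548, plus strand: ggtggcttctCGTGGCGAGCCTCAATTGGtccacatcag
Hsp90b1, chr10:86705523-86705666, minus strand: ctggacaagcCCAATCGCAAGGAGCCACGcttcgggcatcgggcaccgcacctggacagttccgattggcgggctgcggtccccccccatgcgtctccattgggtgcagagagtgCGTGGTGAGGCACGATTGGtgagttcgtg
Calr, chr8:84847065-84847103, minus strand: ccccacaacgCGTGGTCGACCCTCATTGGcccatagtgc

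In Hspa5 and Pdia6 the match reads along the gene, in Creld2 and Calr it lies on the opposite strand, and Hsp90b1 holds 2 matches, 1 in each direction. ERSE was present in 7 of the 14 folding genes with a window, the 5 above and Canx and Dnajc3, and in 2 of the 7 degradation and translocation genes, Syvn1 and Derl3. None of the 7 PERK arm genes had it. Pdia3, Sdf2l1, Dnajb9 and Dnajb11, folding genes also called higher at day 3 on the limma test described below, had windows without ERSE. Of all 27025 mouse genes with a window 37 had ERSE, or 0.137%, and of the 32851 windows 0.119%. In the response gene Herpud1, a match to ERSE-II, searched as ATTGG, 1 base of any kind and CCACG, stands beside a match to another element:
Herpud1, chr8:94386307-94386397, plus strand: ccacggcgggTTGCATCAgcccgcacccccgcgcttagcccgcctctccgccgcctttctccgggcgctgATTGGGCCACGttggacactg
The second element is CARE, spelled TGATGNAA, to which ATF4 and its partners bind. ERSE-II was also present in Dnajb11, 7 to 17 bases after the start, and in 0.0444% of all genes and 0.0365% of windows.

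For the PERK arm the matching letters are those of CARE, shown for the 2 members that were tested and hold it:
Asns, chr6:7693215-7693242, minus strand: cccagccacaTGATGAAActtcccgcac
Chac1, chr2:119351039-119351066, plus strand: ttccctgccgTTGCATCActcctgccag

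CARE was also present in Trib3, 14 to 21 bases after the start, so 3 of 7 PERK arm genes held it, and among the folding genes in Txndc5. It is a short motif that 4.51% of all genes and 3.97% of windows hold. Txndc5 was the only member with the element UPRE, spelled TGACGTGG, which 0.714% of genes and 0.676% of windows hold. Both strands were searched for every element. No stretch of bases overlapped between matches of different elements in a member. A match is a description of the letters and not a measured binding site.

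**Figure D1:**
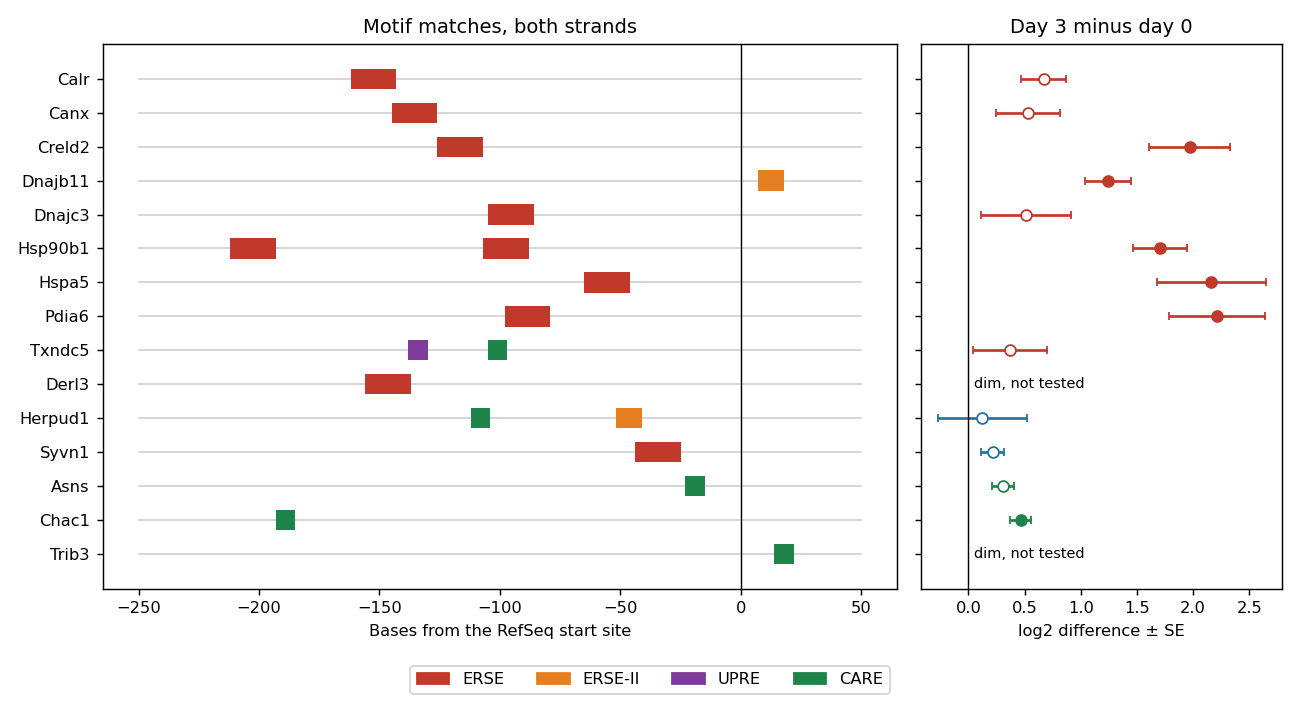
Left, positions of matches to ERSE, ERSE-II, UPRE and CARE on either strand, in bases from the RefSeq start, in the 15 members with a match. Right, log2 difference of day 3 minus day 0 with its SE (n = 3 arrays per group, limma), filled where adjusted p was under 0.05. The members with ERSE and a filled point are Creld2, Hsp90b1, Hspa5 and Pdia6, while Calr, Canx, Dnajc3 and Syvn1 hold it with an open point.

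Of the 25 tested genes that hold ERSE, 2 were called higher at day 1, 6 at day 3 and 5 at day 7, where called means adjusted p under 0.05 on the limma test described below. Once the members were left out, 0, 2 and 4 of 17 were, against 1.99%, 4.61% and 12.1% of all genes. The sets with and without the members each held 2 genes called lower at each time.

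The arrays differed in signal over background. The median of positive control features minus that of negative control features went from 2.59 ± 0.05 log2 units on the 3 untreated arrays (mean ± SD) to 2.25 ± 0.29 after 1 day, 1.98 ± 0.14 after 3 days and 1.76 ± 0.49 after 7 days. Its lowest value, 1.20, was that of day 7 replicate 1. That array also read low for these genes: 24 of the 29 tested members had their lowest day 7 signal on it, against 38% of all genes. Day 1 replicate 1 held the lowest day 1 signal of 25 members, against 36.9% of all genes. All levels below are log2 signals as deposited, where 1 unit is a doubling, and are comparable between arrays for 1 gene but not between genes. The part of array quality in the results was not tested. A fit with the control difference as a covariate is given beside some results, and the other calls it changes are given in the part on processing. In RNA from whole vessels, more cells of a type and more RNA per cell cannot be told apart.

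Chaperones and folding enzymes made up nearly all members called higher under angiotensin II. More of them passed the adjusted threshold at day 3 than at day 1, though their differences were close on these days. On the limma test with Benjamini-Hochberg adjustment over all genes (called at adjusted p under 0.05), 4 of the 14 tested folding genes were higher at day 1 and 9 of 14 at day 3, with none lower. At day 7, 1 of 14 was higher. The scaling and array quality moved the day 1 count: 2 members were called higher under quantile normalization, 2 under median centring and 9 with the control covariate, against 4, all of these folding genes. At day 3 median centring gave 6 members against 10. Among all genes the share called higher was 1.99% at day 1, 4.61% at day 3 and 12.1% at day 7, and the share called lower was 1.63%, 7.14% and 13.2%. At unadjusted p under 0.05, 12 of the 14 folding genes were higher at day 1, 11 at day 3 and 4 at day 7. In either direction 16.4%, 28.2% and 43.4% of all genes passed. The median log2 difference of the 14 folding genes was 0.87 at day 1, 0.96 at day 3 and 0.12 at day 7, while that of all genes was 0.01, 0.08 and 0.09. The 3 comparisons share the day 0 arrays and are not independent of each other.

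**Figure D2:**
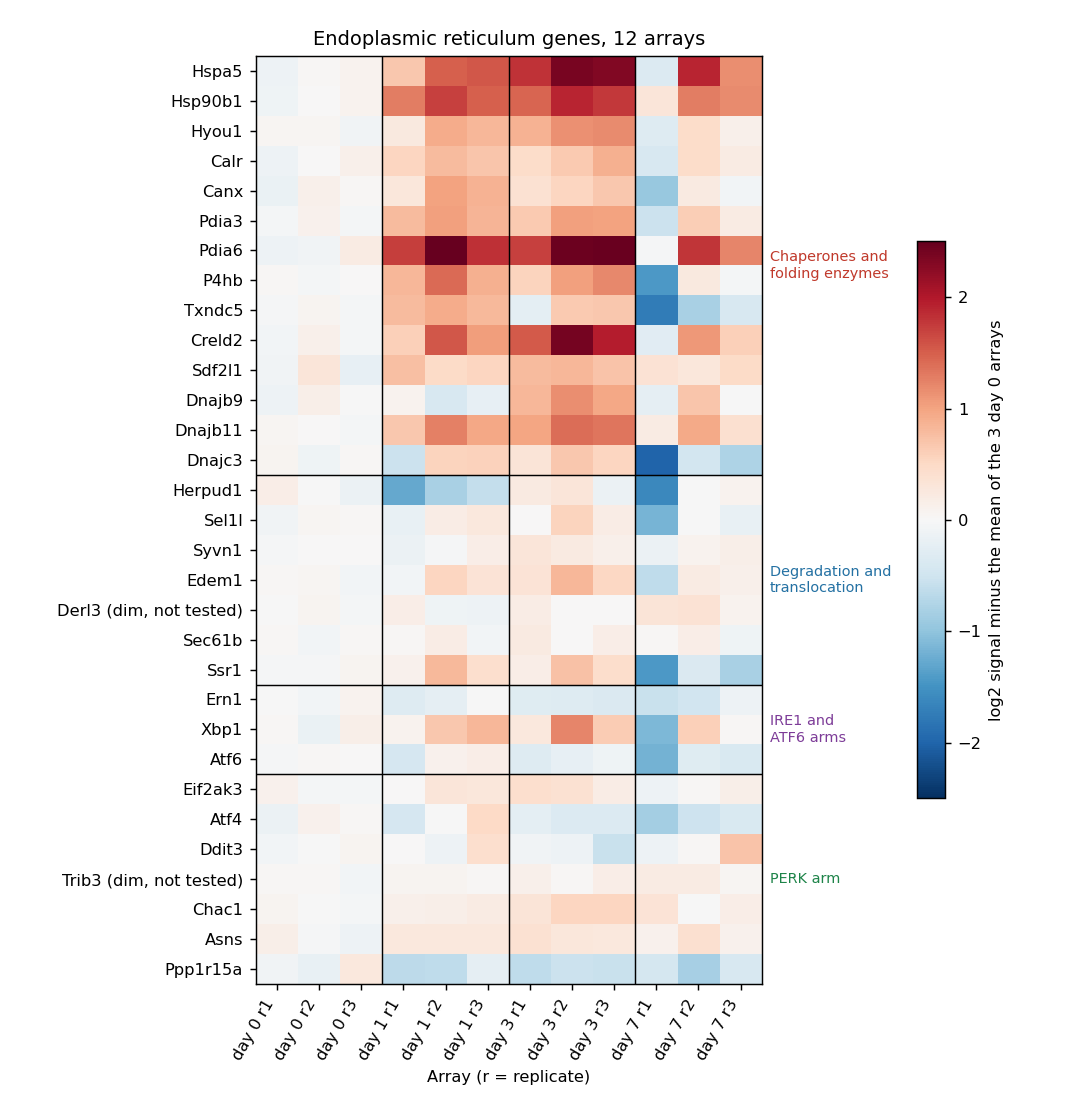
Log2 signal of the 31 measured members minus each gene's day 0 mean (colour), on the 12 arrays (columns, r = replicate), with lines between roles and days. The folding genes at the top are red on the day 1 and day 3 arrays except Dnajb9 at day 1, Dnajc3 on day 1 replicate 1 and Txndc5 on day 3 replicate 1, and day 7 replicate 1 holds the lowest day 7 value in 24 of the 29 tested members.

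Single arrays decided many calls at day 1. The 4 members called higher became 0 without day 0 replicate 1, day 0 replicate 3 or day 1 replicate 2, and 1 without day 0 replicate 2, day 1 replicate 1, day 3 replicate 2 or day 3 replicate 3. They became 2 without day 1 replicate 3 and 8 without day 7 replicate 1. At day 3 the count of 10 members, the 9 folding genes and Chac1, became 5 without day 0 replicate 2 or 3 and 4 without day 3 replicate 2 or 3. Creld2 and Dnajb11 were called at day 3 under each of the 21 alternative settings, and Hsp90b1 and Sdf2l1 with each array left out. By array overlap days 1 and 3 were close. All 3 treated arrays lay above all 3 day 0 arrays in 12 of 14 folding genes at day 1, against 11.8% of all genes. At day 3 they did in 13 of 14, against 23.3%.

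Hspa5 encodes BiP, the chaperone that binds unfolded chains and holds the sensors inactive. Its signals were 9.77, 9.93 and 9.98 at day 0, 10.57, 11.39 and 11.44 at day 1, 11.70, 12.26 and 12.22 at day 3, and 9.55, 11.79 and 11.07 at day 7. All day 1 and day 3 arrays stood above day 0, and at day 7 replicate 1 lay below every day 0 array while the others lay above. The difference from day 0 was 2.16 ± 0.49 (SE) at day 3, 4.48-fold, with adjusted p = 0.023, and 1.24 ± 0.49 at day 1 with adjusted p = 0.231. The day 3 call was lost, at adjusted p from 0.0674 to 0.0858, without any 1 of the day 0 arrays or without day 3 replicate 2 or 3. At day 1 it passed without day 7 replicate 1, at adjusted p = 0.043, and with the control covariate, at 0.0289. At day 7 it passed as higher with that covariate, by 2.38 (0.0399).

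Hsp90b1 encodes GRP94, the HSP90 of the organelle, which folds integrins and Toll-like receptors. It read 14.19, 14.30 and 14.38 at day 0, 15.56, 16.01 and 15.78 at day 1, 15.75, 16.19 and 16.05 at day 3, and 14.60, 15.57 and 15.48 at day 7. Every treated array exceeded every day 0 array, and it was the only member called higher at all 3 times. The differences were 1.49 ± 0.24 (adjusted p = 0.0156), 1.71 ± 0.24 (0.0051) and 0.93 ± 0.24 (0.0246). Quantile normalization, which forces 1 distribution on all arrays, gave 1.26, 1.06 and -0.13, none of them called, so the sign at day 7 flips. Median centring gave 0.65 at day 7 and ended that call (0.0999). The day 1 call was lost, at adjusted p from 0.0502 to 0.0743, without any 1 of the day 0 arrays or day 1 replicate 2. The day 7 call was lost, at 0.0561 to 0.0736, without any 1 of the day 0 arrays or day 7 replicate 2.

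Hyou1, an HSP70-like exchange factor of BiP, had 8.01, 8.00 and 7.86 at day 0, 8.21, 8.89 and 8.79 at day 1, 8.82, 9.10 and 9.13 at day 3, and 7.64, 8.42 and 8.08 at day 7. The day 1 and day 3 arrays lay above day 0, and day 7 overlapped it. The gene rose by 1.06 ± 0.22 at day 3 (adjusted p = 0.0175), and its day 1 difference was 0.67 ± 0.22 (0.142). The day 3 call was lost at adjusted p = 0.0596 with median-centred arrays, and at 0.0532 to 0.0723 without day 0 replicate 2 or 3 or day 3 replicate 2 or 3.

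Among the disulfide isomerases, Pdia6 had the largest day 3 difference of the 29 members. Pdia6, which also binds the IRE1 sensor, had 9.79, 9.84 and 10.14 at day 0, 11.65, 12.45 and 11.75 at day 1, 11.63, 12.37 and 12.40 at day 3, and 9.89, 11.71 and 11.14 at day 7. The day 1 and day 3 arrays stood well above day 0, and day 7 replicate 1 alone fell within it. The difference was 2.03 ± 0.43 at day 1 (adjusted p = 0.0355), or 4.08-fold, and 2.21 ± 0.43 at day 3 (0.0139), or 4.64-fold. At day 7 it was 0.99 ± 0.43 (0.105). The day 1 call was lost, at adjusted p from 0.0555 to 0.139, without any 1 of the day 0 arrays, day 1 replicate 1 or 2, or day 3 replicate 2 or 3. The day 3 call was lost at 0.051 without day 3 replicate 2 and at 0.061 without day 3 replicate 3.

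Pdia3, the isomerase that works with calnexin and calreticulin on glycoproteins, had 13.71, 13.86 and 13.72 at day 0, 14.55, 14.79 and 14.61 at day 1, 14.42, 14.78 and 14.77 at day 3, and 13.22, 14.38 and 13.97 at day 7. Days 1 and 3 lay above day 0 with no overlap, and day 7 spread to both sides of it. The difference was 0.89 ± 0.25 at day 3 (adjusted p = 0.0454) and 0.89 ± 0.25 at day 1 (0.0856). The day 3 call was near the threshold: it was lost, at 0.0541 to 0.145, without any 1 array other than day 7 replicates 1 and 2, and quantile normalization gave 0.34. The 2 other isomerases were called only in alternative fits. P4hb, which is also the beta subunit of collagen prolyl 4-hydroxylase, differed by 1.04 ± 0.38 at day 1 (0.2), 0.93 ± 0.38 at day 3 (0.149) and -0.42 ± 0.38 at day 7 (0.414). Without day 7 replicate 1 P4hb passed as higher at day 1 (0.0256) and day 3 (0.0184), and its day 7 difference turned to 0.097. The control covariate also turned that difference, to 0.55, while quantile normalization gave -1.29, called lower (0.0451). Txndc5 differed by 0.85 ± 0.33 (0.231), 0.37 ± 0.33 (0.473) and -0.99 ± 0.33 (0.054), and its day 7 arrays all lay below day 0. In a fit of the day 0 and day 1 arrays alone Txndc5 passed as higher at day 1 (0.0293). It passed as lower at day 7 without day 3 replicate 1 or day 7 replicate 3, at 0.0199 to 0.0383. Quantile normalization (-1.14, 0.0295), median centring (-1.26, 0.0255) and a filter at the 60th percentile (0.0484) also called Txndc5 lower there.

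The lectin chaperones Calr and Canx, which hold glycoproteins until they are folded, lay above day 0 on all day 1 and day 3 arrays. They did not pass in the fit of all arrays without a covariate. With the control covariate both passed at day 1, at adjusted p = 0.0428 (Calr) and 0.029 (Canx). Calr ranged from 12.44 to 12.69 at day 0, 13.10 to 13.36 at day 1, 13.03 to 13.47 at day 3 and 12.18 to 13.02 at day 7. Its differences were 0.67 ± 0.20 (adjusted p = 0.111), 0.67 ± 0.20 (0.0611) and 0.09 ± 0.20 (0.753). Without day 7 replicate 1 Calr passed at day 1 (0.0291) and day 3 (0.0146), and without day 7 replicate 2 at day 3 (0.0411). Canx differed by 0.72 ± 0.29 (0.239), 0.53 ± 0.29 (0.252) and -0.26 ± 0.29 (0.488), and the last turned to 0.080 without day 7 replicate 1.

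Creld2, a disulfide-linked stress protein of the organelle, read 7.83, 8.01 and 7.85 at day 0, 8.50, 9.45 and 8.94 at day 1, 9.44, 10.30 and 9.86 at day 3, and 7.62, 8.98 and 8.50 at day 7. The day 3 arrays were the highest as a group, with day 1 between them and day 0 apart from 1 overlapping array. It rose by 1.97 ± 0.36 at day 3 (adjusted p = 0.0113), or 3.91-fold, and its day 1 difference was 1.07 ± 0.36 (0.155). Sdf2l1, a partner of BiP and its J proteins, read 7.08, 7.47 and 6.97 at day 0, 7.93, 7.65 and 7.71 at day 1, 7.96, 8.00 and 7.88 at day 3, and 7.53, 7.46 and 7.65 at day 7. Its day 3 arrays lay close together and above every day 0 array. It rose by 0.59 ± 0.13 at day 1 (0.0429) and 0.77 ± 0.13 at day 3 (0.00896). The day 1 call of Sdf2l1 was lost, at adjusted p from 0.052 to 0.152, without any 1 array other than day 0 replicate 2 and day 7 replicate 1, and under both other scalings. With the control covariate its day 3 adjusted p was 0.0672.

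The J proteins, which deliver clients to BiP and start its ATP cycle, did not move alike. Dnajb11 read 7.14, 7.11 and 7.04 at day 0, 7.77, 8.35 and 8.07 at day 1, 8.09, 8.49 and 8.44 at day 3, and 7.30, 8.04 and 7.50 at day 7. Every treated array lay above day 0. It rose by 0.96 ± 0.20 at day 1 (adjusted p = 0.0363) and 1.24 ± 0.20 at day 3 (0.00822), and the day 7 difference was 0.52 ± 0.20 (0.0847). The day 1 call was lost, at 0.0569 to 0.139, without any 1 array of day 0 or day 1, without day 3 replicate 2 or 3, and with median-centred arrays (0.0763).

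Dnajb9, a J protein that returns the IRE1 sensor to its resting state, read 9.65, 9.92 and 9.77 at day 0, 9.86, 9.37 and 9.58 at day 1, 10.62, 10.95 and 10.74 at day 3, and 9.55, 10.48 and 9.76 at day 7. It was high on the day 3 arrays, and day 1 overlapped day 0. The difference was -0.18 ± 0.22 at day 1 (adjusted p = 0.847) and 0.99 ± 0.22 at day 3 (0.0241). Between day 3 and day 1 it was 1.16 ± 0.22, with adjusted p = 0.588, although no array overlapped. The day 3 call was lost at 0.0576 to 0.0826 without any 1 of the day 0 arrays or day 3 replicate 2 or 3, at 0.0507 with median-centred arrays and at 0.0929 with the control covariate. Dnajc3, a J protein also known as an inhibitor of PERK, was not called: it differed by 0.20 ± 0.40 (0.932), 0.51 ± 0.40 (0.408) and -1.08 ± 0.40 (0.0702). It passed as lower at day 7 without day 1 replicate 1 (0.0439) and with median-centred arrays (-1.36, 0.0403). With the control covariate it read 0.22 at day 7 and passed as higher at day 3 (1.46, 0.0452).

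**Figure D3:**
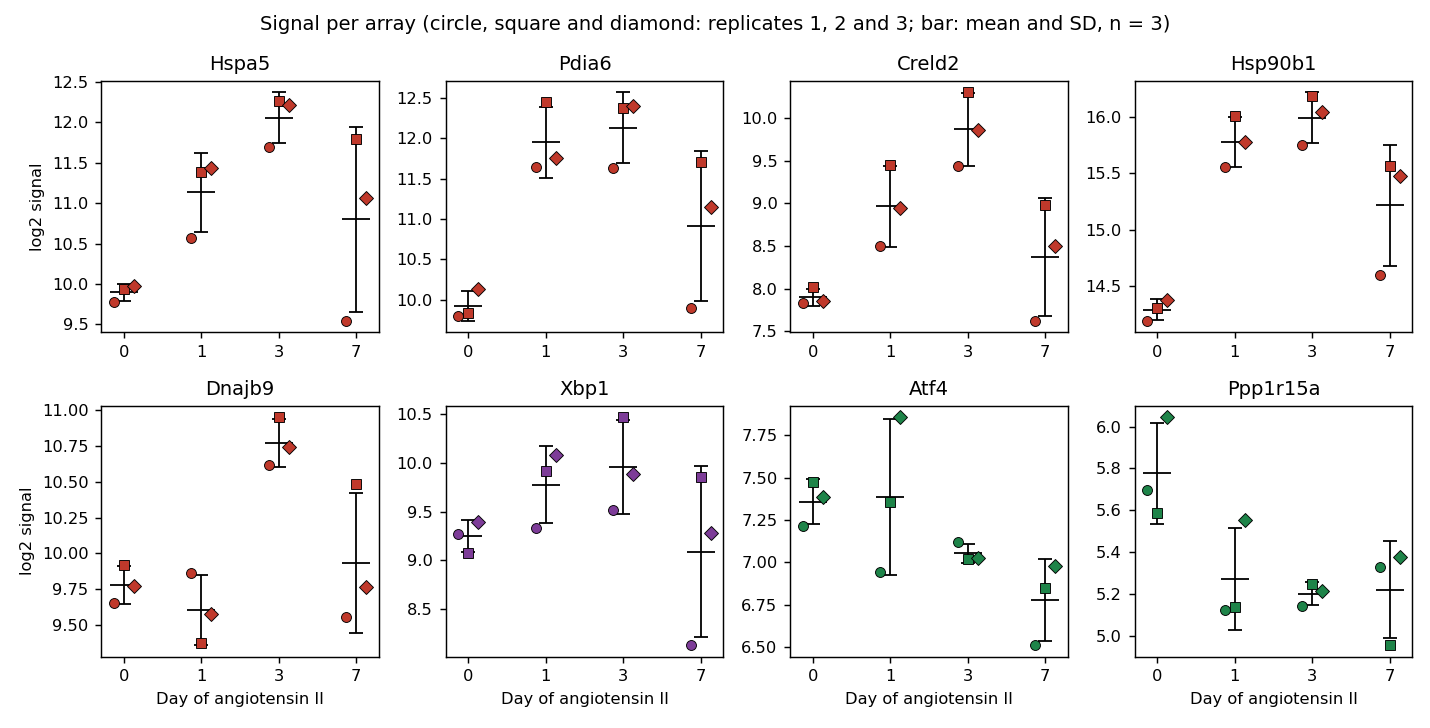
Log2 signal on each array for 8 members at day 0, 1, 3 and 7, with replicates 1, 2 and 3 as circle, square and diamond and the mean ± SD as bars (n = 3). The signal axis differs by gene and does not start at 0. Hspa5, Pdia6, Creld2 and Hsp90b1 are high at days 1 and 3, Dnajb9 at day 3, and day 7 replicate 1 is the lowest day 7 array in all but Ppp1r15a.

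Between days 1 and 3, limma called 0% of all genes, and 0 of the 29 members. At unadjusted p under 0.05 there were 4 members higher at day 3, among them Dnajb9 and Creld2, while 8.05% of all genes passed in either direction. The day 3 arrays lay wholly above the day 1 arrays in 5 of 29 members, against 7.04% of all genes. The highest mean of the time course was at day 3 in 20 of 29 members, 11 of them folding genes, against 17.1% of all genes.

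At day 7 the folding genes lay lower than at day 3. Against day 3 limma called 0.154% of all genes lower and 0 of the 29 members, but all 14 folding genes were lower at unadjusted p under 0.05, and 19 of the 29 members in all, against 6.68% of all genes. The median difference of the folding genes from day 3 was -0.90, and that of all genes 0.02. Without day 7 replicate 1, the array with the lowest signal over background, the folding median was -0.64. In 12 of the 14 folding genes and 17 of the 29 members all day 7 arrays lay below all day 3 arrays, against 7.97% of all genes. Examples were Creld2, at -1.50 ± 0.36 (adjusted p = 0.128), and Dnajc3, at -1.59 ± 0.40 (0.142). Dnajb9 became the 1 member called lower when day 7 replicate 2 was left out, at 0.0424.

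The spread at day 7 was wide. The median SD of the folding genes was 0.60 there, against 0.10 at day 0, 0.31 at day 1 and 0.22 at day 3, while that of all genes at day 7 was 0.25. All 3 day 7 arrays lay above day 0 in 2 members, Hsp90b1 and Dnajb11, against 26.6% of all genes, and below it in 7, against 20.5%. Without day 7 replicate 1, 3 folding genes were called higher at day 7 and none lower: Hspa5 by 1.54 ± 0.31 (adjusted p = 0.0148), Hsp90b1 by 1.23 ± 0.16 (0.00244) and Pdia6 by 1.50 ± 0.32 (0.0167). The folding median was then 0.36, with 15.5% of all genes called, while it was -0.094 without day 7 replicate 2, -0.059 after quantile normalization and -0.15 with median centring. The 1 member called higher at day 7 became 0 without day 0 replicate 1, day 0 replicate 3 or day 7 replicate 2. The 3 called lower, Ssr1, Ern1 and Ppp1r15a, became 0 without day 0 replicate 1 or 3, day 3 replicate 2 or 3, or day 7 replicate 1. They became 1 without day 0 replicate 2 or day 7 replicate 2, and 5 without day 1 replicate 1.

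The genes of degradation and translocation had smaller differences, mostly with the same peak. Of the 6 tested, 5 had their highest mean at day 3, against 17.1% of all genes. All 6 differences from day 0 were positive there, against 59.8% of all genes. All 6 were negative between days 7 and 3, against 45.3%, and 3 of them at unadjusted p under 0.05, against 6.68%. None was called at day 1 or 3 in the fit of all arrays without a covariate, with medians of 0.07 and 0.23. At day 7, 1, Ssr1, was called lower, against 13.2% of all genes. With the control covariate Herpud1, Syvn1 (adjusted p = 0.0301) and Edem1 (0.0439) passed as higher at day 3. The difference between this role and the folding genes was not tested. Herpud1, a membrane scaffold of the degradation complex, ranged from 10.60 to 10.91 at day 0, 9.47 to 10.15 at day 1, 10.59 to 11.04 at day 3 and 9.12 to 10.83 at day 7. All its day 1 arrays lay below day 0, at -0.90 ± 0.40 (adjusted p = 0.304), and it passed as lower there without day 7 replicate 1 (0.0327). Its day 3 difference was 0.12 ± 0.40 (0.853), which median centring turned to -0.059. With the control covariate Herpud1 passed as higher at day 3, by 1.17 (0.0242), and at day 7, by 0.92 (0.0479), against -0.52 without it. Edem1, a lectin that directs misfolded glycoproteins to degradation, differed by 0.56 ± 0.23 at day 3 (0.149), with all day 3 arrays above day 0. Its day 7 difference of -0.10 turned to 0.17 without day 7 replicate 1.

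Sel1l and Syvn1, which form the ubiquitin ligase of the degradation complex, differed from day 0 by between -0.45 and 0.25. Sec61b, a subunit of the import channel, lay under the median of the negative control features on 10 of 12 arrays, and Derl3, a channel protein of degradation, on all 12. Ssr1, a subunit of the translocon-associated complex, read 10.90, 10.90 and 11.00 at day 0, 11.04, 11.73 and 11.36 at day 1, 11.10, 11.67 and 11.36 at day 3, and 9.50, 10.58 and 10.13 at day 7. It was above day 0 on all day 1 and day 3 arrays and below it on all day 7 arrays. The day 7 difference was -0.86 ± 0.27 (adjusted p = 0.0441), and it was the gene with the smallest adjusted p between days 7 and 3 among the members (-1.30 ± 0.27, 0.0938). The day 7 call was lost, at adjusted p from 0.0527 to 0.123, without any 1 of the day 0 arrays, day 1 replicate 3, day 3 replicate 2 or 3, or day 7 replicate 1 or 3. Without day 7 replicate 1 the difference was -0.58, and with the control covariate -0.21.

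None of the 3 sensor genes was called higher in the fit without a covariate. Eif2ak3 (PERK), described with its arm, lay above day 0 on all day 3 arrays, while Ern1 and Atf6 lay below it there. Ern1 read 7.10, 7.04 and 7.20 at day 0, 6.78, 6.88 and 7.11 at day 1, 6.81, 6.80 and 6.76 at day 3, and 6.56, 6.64 and 6.98 at day 7. All day 3 and day 7 arrays were below day 0. The gene fell at day 7 by 0.38 ± 0.12 (adjusted p = 0.044), and differed by -0.32 ± 0.12 at day 3 (0.114). The day 7 call was lost, at 0.0561 to 0.131, without any 1 array of day 0 or day 3, day 1 replicate 2, or day 7 replicate 1 or 2, and the difference was -0.08 with the control covariate.

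Atf6 read 8.41, 8.46 and 8.44 at day 0, 8.02, 8.54 and 8.60 at day 1, 8.12, 8.23 and 8.32 at day 3, and 7.25, 8.14 and 8.06 at day 7. The day 3 and day 7 arrays lay below day 0. The differences were -0.05 ± 0.23 (adjusted p = 0.988), -0.21 ± 0.23 (0.552) and -0.62 ± 0.23 (0.0698), and the control covariate turned the last to 0.13. Median centring gave -0.89 at day 7, called lower (0.0382). Xbp1, the target of IRE1, read 9.28, 9.07 and 9.40 at day 0, 9.33, 9.92 and 10.08 at day 1, 9.52, 10.47 and 9.88 at day 3, and 8.13, 9.85 and 9.29 at day 7. Its day 3 arrays were above day 0 and its day 7 arrays on both sides. It was not called, with 0.53 ± 0.41 (0.651), 0.71 ± 0.41 (0.284) and -0.16 ± 0.41 (0.784). Without day 7 replicate 1 the day 7 difference turned to 0.32, and with the control covariate to 0.99. The transcript cluster does not separate spliced from unspliced Xbp1.

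The PERK arm genes showed no common shift. Their median difference from day 0 over the 6 tested was 0.13 at day 1, 0.03 at day 3 and 0.09 at day 7, close to those of all genes. Median centring turned the last 2 to -0.16 and -0.19, and quantile normalization turned the day 7 value to -0.055. The day 3 median was -0.029 without day 3 replicate 1, and the day 7 median -0.052 without day 7 replicate 3. These medians near 0 cover genes that moved in both directions. At day 3 all arrays lay above day 0 in 3 of the 6, against 23.3% of all genes, and below it in the other 3. At unadjusted p under 0.05 on the limma test, 3 were higher and 1 lower there, against 28.2% of all genes in either direction. One gene, Chac1, was called higher at day 3, and 1, Ppp1r15a, lower at day 7. Both of these lay under the median of the negative control features on all 12 arrays, as did Trib3.

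Eif2ak3, the sensor kinase, read 7.83, 7.67 and 7.67 at day 0, 7.74, 8.02 and 8.01 at day 1, 8.14, 8.11 and 7.90 at day 3, and 7.59, 7.74 and 7.87 at day 7. Only the day 3 arrays lay wholly above day 0. It differed by 0.20 ± 0.11 (adjusted p = 0.445), 0.33 ± 0.11 (0.0879) and 0.01 ± 0.11 (0.941), and the control covariate gave 0.55 at day 3 (0.0426). Atf4 read 7.21, 7.47 and 7.39 at day 0, 6.94, 7.36 and 7.86 at day 1, 7.12, 7.02 and 7.03 at day 3, and 6.51, 6.85 and 6.98 at day 7. Day 1 spread around day 0, and days 3 and 7 lay below it. The differences were 0.03 ± 0.21 (1.00), -0.30 ± 0.21 (0.349) and -0.58 ± 0.21 (0.0643). Atf4 passed as lower at day 7 without day 1 replicate 1 (0.0293) or 3 (0.0249) and with median-centred arrays (0.0379), and read 0.04 with the control covariate.

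Ddit3, which encodes the factor CHOP, read 8.06, 8.12 and 8.20 at day 0, 8.14, 8.00 and 8.54 at day 1, 8.03, 8.01 and 7.57 at day 3, and 8.00, 8.15 and 8.84 at day 7. Day 3 was just below day 0, and days 1 and 7 each had 1 array well above it. The differences were 0.10 ± 0.23 (adjusted p = 0.944), -0.25 ± 0.23 (0.47) and 0.21 ± 0.23 (0.497). Asns, the ATF4 target that makes asparagine, read 6.54, 6.37 and 6.27 at day 0, 6.65, 6.66 and 6.65 at day 1, 6.77, 6.68 and 6.66 at day 3, and 6.51, 6.79 and 6.49 at day 7. All day 1 and day 3 arrays lay above day 0 by a small margin. The differences were 0.26 ± 0.10 (0.202), 0.31 ± 0.10 (0.0689) and 0.20 ± 0.10 (0.133), and the day 3 difference passed without day 7 replicate 2 (0.0372).

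Chac1, a glutathione-degrading enzyme induced by ATF4, read 5.03, 4.95 and 4.92 at day 0, 5.09, 5.12 and 5.16 at day 1, 5.29, 5.50 and 5.49 at day 3, and 5.30, 4.95 and 5.14 at day 7. Its day 3 arrays lay above all day 0 and day 1 arrays but were dim, and day 7 replicate 1 reached the lowest of them. It rose by 0.46 ± 0.10 at day 3 (adjusted p = 0.0181), which quantile normalization and median centring both lowered to 0.28 (0.15 and 0.187). The call was also lost, at 0.0603 to 0.0747, without day 0 replicate 2 or 3 or day 3 replicate 2 or 3. With the control covariate it was lost too (0.158). At day 3 the median difference of all genes with a mean signal under 6 was 0.18.

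Ppp1r15a encodes GADD34, which guides the phosphatase that reverses PERK's mark on eIF2alpha. It read 5.70, 5.59 and 6.05 at day 0, 5.12, 5.14 and 5.55 at day 1, 5.14, 5.25 and 5.21 at day 3, and 5.33, 4.95 and 5.38 at day 7. Every treated array lay below every day 0 array. The differences were -0.50 ± 0.16 (adjusted p = 0.14), -0.58 ± 0.16 (0.0506) and -0.56 ± 0.16 (0.0369). The day 7 call was lost, at 0.0512 to 0.108, without day 0 replicate 1 or 3, day 3 replicate 2 or 3, or day 7 replicate 1 or 2. It was also lost with the control covariate (0.328) and in a fit of the day 0 and day 7 arrays alone (0.0871). At day 3 the gene passed as lower without day 1 replicate 3 (0.0349) or day 7 replicate 2 (0.0403). It also passed there under quantile normalization (-0.75, 0.0445), median centring (-0.76, 0.0407) and a robust variance trend (0.0496). A fit of the day 0 and day 3 arrays alone called it as well (0.0358). Trib3, a pseudokinase induced by CHOP, stayed between 4.48 and 4.76 on the 12 arrays.

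**Figure D4:**
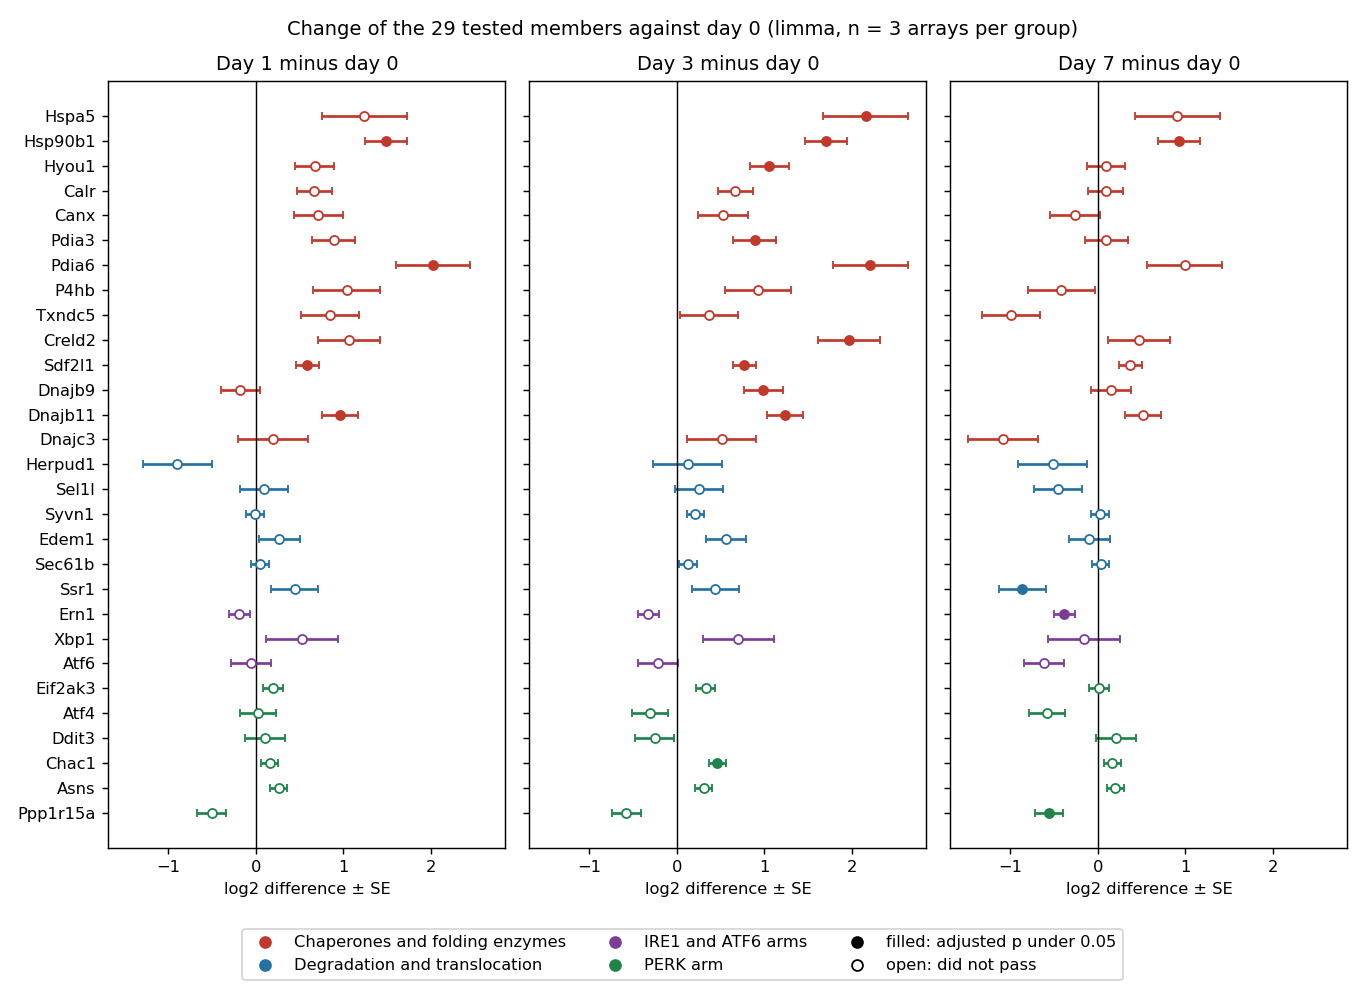
Log2 difference from day 0 with its SE for the 29 tested members (limma, n = 3 arrays per group) at day 1, 3 and 7, coloured by role and filled where adjusted p was under 0.05. Filled points number 4, 10 and 4, and at day 3 they are 9 folding genes and Chac1. Under quantile normalization the sign of Hsp90b1 at day 7 flips.

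Folding and PERK arm genes separated at days 1 and 3 and not at day 7. On each array the median difference of the folding genes from their day 0 means minus that of the PERK arm genes was -0.08, 0.06 and 0.01 at day 0. It was 0.66, 0.94 and 0.58 at day 1, 0.70, 1.00 and 1.17 at day 3, and -0.20, 0.54 and 0.08 at day 7. All day 1 and day 3 arrays exceeded all day 0 arrays. So did day 7 replicate 2 and, by a small margin, replicate 3, while day 7 replicate 1, the array with the lowest signal over background, lay below them. No folding gene but 3 of the 7 measured PERK arm genes lay under the median of the negative control features on all 12 arrays. Of all genes, those with a mean signal of 10 to 12 had a median difference of -0.13 at day 3, and the 5 folding genes in that range had 0.99.

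**Figure D5:**
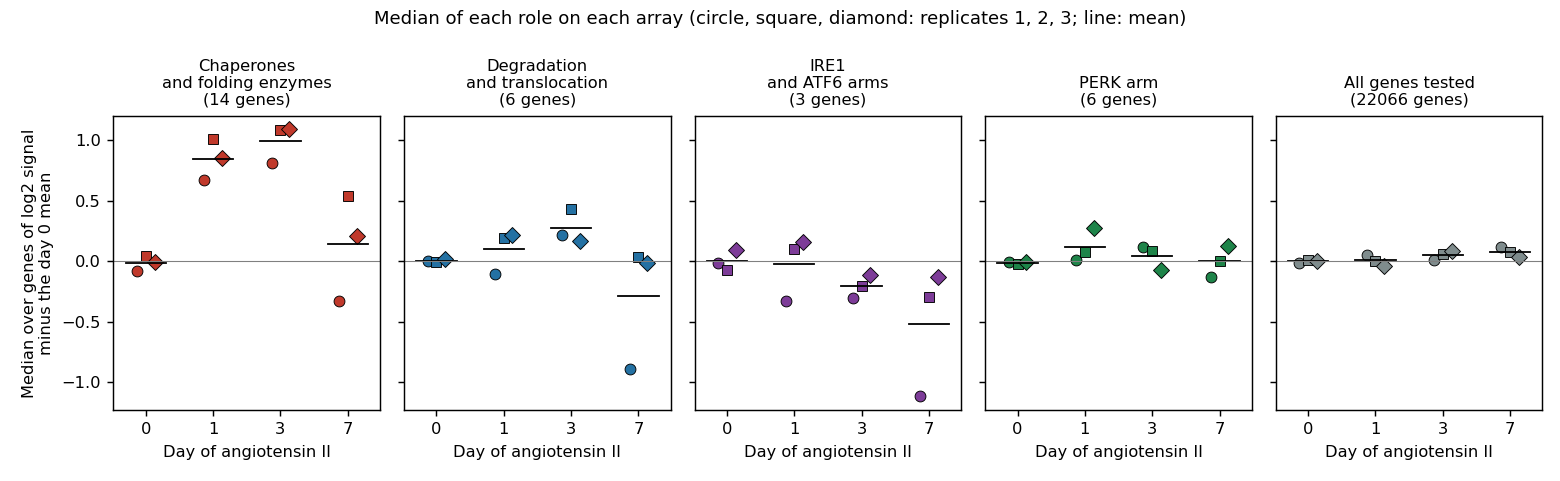
Median over the genes of each role, and over all genes tested, of the log2 signal minus the day 0 mean on each array (circle, square and diamond for replicates 1, 2 and 3; line, mean of 3). Folding genes lie between 0.67 and 1.09 on the day 1 and day 3 arrays, while PERK arm genes lie between -0.08 and 0.27 there. Median centring turns the day 7 medians of both roles and the day 3 median of the PERK arm below 0, and quantile normalization both day 7 medians.

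Genes of the same organelle outside the set were called less evenly. Of 28 other folding genes, Pdia5, an isomerase, rose at day 1 by 0.68 ± 0.11 (adjusted p = 0.0164) and at day 3 by 0.47 ± 0.11 (0.03), and Hspa13 rose at day 3 by 0.56 ± 0.12 (0.0178). Tmx4, a membrane thioredoxin, fell at each time, with -1.11 ± 0.22 (0.0307), -1.33 ± 0.22 (0.0086) and -1.48 ± 0.22 (0.00297). Qsox1, a sulfhydryl oxidase, and Sil1, an exchange factor of BiP, fell at day 3, with -1.46 ± 0.35 (0.0291) and -0.34 ± 0.08 (0.0316). The list's median was 0.15, 0.08 and -0.21. Of its 28 genes 1 was called higher and 1 lower at day 1, against 1.99% and 1.63% of all genes. At day 3 these were 2 and 3, against 4.61% and 7.14%. At day 7 it held 2 genes called higher, Ero1b and Erp29, and 6 lower, against 12.1% and 13.2% of all genes. The 6 were led by Qsox1 (-2.11 ± 0.35, 0.00451) and Dnajc10 (-1.52 ± 0.26, 0.00506).

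In the list of collagen-modifying enzymes, 0 of 12 tested genes were called at days 1 and 3, and at day 7 1 rose and 2 fell, near the 12.1% and 13.2% of all genes. At day 7 P4ha3, a catalytic subunit of collagen prolyl 4-hydroxylase, rose by 0.92 ± 0.22 (adjusted p = 0.0171). P3h2, a prolyl 3-hydroxylase, fell (-1.32 ± 0.31, 0.0175), as did Crtap, a partner protein of a prolyl 3-hydroxylase (-1.02 ± 0.19, 0.00716). Of 18 glycosylation genes, 1 rose at day 3, against 4.61% of all genes, the oligosaccharyltransferase subunit Magt1 (0.81 ± 0.18, 0.0205). At day 7, 3 of 18 fell, against 13.2% of all genes, all of them subunits of the same enzyme: Dad1 (-1.61 ± 0.31, 0.00741), Ddost (-1.10 ± 0.29, 0.0266) and Rpn2 (-0.68 ± 0.18, 0.0263).

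Among the genes of transport out of the organelle, 7 of 16 COPII genes fell at day 7 and 0 rose, against 13.2% and 12.1% of all genes, led by the coat proteins Sec24d (-1.84 ± 0.30, adjusted p = 0.00399) and Sec23a (-1.01 ± 0.30, 0.0361). At day 3 the cargo receptor Lman1 was the 1 called, by 0.98 ± 0.26 (0.0396). Of 16 other translocation genes, Sec62, an import factor, fell at day 3 by 0.88 ± 0.25 (0.0484), Sec11a, a signal peptidase, rose by 0.57 ± 0.13 (0.0262), and 3 fell at day 7, a share near that of all genes. They were Sec62 and both subunits of the signal recognition particle receptor, Srpr and Srprb. The subunits Sec61a1 (-0.23 ± 0.18, 0.349) and Sec61a2 (0.27 ± 0.15, 0.18) of the import channel were not called. Of 16 other degradation genes 1 rose at day 3, Selenos, by 0.85 ± 0.22 (0.0372), and 4 fell at day 7, against 13.2% of all genes, among them Ube2j1, a ubiquitin-conjugating enzyme (-0.76 ± 0.18, 0.0159). The day 7 medians of these 3 lists were -0.43, -0.38 and -0.36, on arrays where all genes with a mean signal of 8 to 10 had a median of -0.26.

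Of 24 tested other targets of ATF4 and the PERK arm, 0 rose and 2 fell at day 1, 2 rose and 2 fell at day 3, and 2 rose and 4 fell at day 7. Among all genes 1.99% rose and 1.63% fell at day 1, 4.61% and 7.14% at day 3, and 12.1% and 13.2% at day 7, so the counts at days 3 and 7 were near the shares of all genes. Atf3, a stress transcription factor, fell at each time, with differences of -2.39 ± 0.33 (adjusted p = 0.0093), -2.33 ± 0.33 (0.00511) and -3.03 ± 0.33 (0.00112). Vldlr, a lipoprotein receptor, likewise fell, with -1.32 ± 0.20 (0.0128), -1.57 ± 0.20 (0.00361) and -1.68 ± 0.20 (0.00133). Ddit4, an inhibitor of mTORC1, rose by 0.91 ± 0.19 at day 3 (0.0181) and 0.98 ± 0.19 at day 7 (0.00798), and Mthfd2, a mitochondrial folate enzyme, by 0.88 ± 0.19 at day 3 (0.0211). The list's median was 0.05, 0.12 and 0.08.

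Among 14 other sensors and regulators, 2 fell at day 3, against 7.14% of all genes. They were Tnfrsf10b (-0.78 ± 0.18, adjusted p = 0.0253) and Wfs1 (-0.45 ± 0.09, 0.0187). The list's largest positive difference at day 7, 1.35, was not called. At day 7, 7 fell, against 13.2% of all genes, and 1 rose, against 12.1%. The 1 was Bcl2l11, a pro-apoptotic BH3 protein, by 0.30 ± 0.07 (0.0134). Creb3l2, a membrane-bound factor of the ATF6 family that drives secretory genes, had the largest of these differences, -1.96 ± 0.20 at day 7 (0.000944), and fell from day 3 to day 7 as well (-1.49 ± 0.20, 0.0226). Mbtps1, the protease that cuts ATF6, fell by 0.72 ± 0.15 at day 7 (0.0099).

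The label of the tissue, vessel, was set against the markers of smooth muscle, which were bright at day 0. Markers of several cell types moved over the same days as the folding genes. Smooth muscle markers averaged 14.3 to 14.5 over the day 0 arrays, 12.3 to 14.0 at day 1, 11.7 to 12.9 at day 3 and 9.04 to 11.9 at day 7, with 1, 3 and 7 of 8 called lower. The day 0 mean of Acta2, 19.93, equalled the highest value on the arrays, so differences from it may be understated. Macrophage markers averaged 7.37 to 7.75, 9.01 to 9.72, 8.95 to 9.60 and 8.60 to 9.80, with 7, 8 and 8 of 9 called higher. Fibroblast markers averaged 12.97 to 14.00, 14.04 to 14.44, 14.2 to 14.5 and 14.7 to 15.5, with 0, 2 and 4 of 7 called higher. Proliferation genes were called higher in 4, 6 and 3 of 6, but 2 of the 6, Aurkb and Bub1, lay under the median of the negative controls on all 12 arrays. Markers of cardiac and skeletal muscle were called higher in 0, 0 and 6 of 7. Of the plasma cell markers 6 of 8, Mzb1, Tnfrsf17, Prdm1, Pou2af1, Fcrl5 and Cd79a, lay under the median of the negative controls on all 12 arrays, where a level cannot be read, and 0 of the 5 tested were called at day 1, 3 or 7. Mzb1 and Prdm1, which were too dim to test, had all day 3 and all day 7 arrays above day 0. Endothelial markers were called in 0, 0 and 1 of 7, the 1 lower. Brown adipocyte markers averaged 7.70 to 8.01 at day 0, 6.64 to 7.14 at day 1, 6.96 to 7.65 at day 3 and 6.48 to 7.80 at day 7, with 1, 1 and 0 of 6 called higher and 2, 2 and 1 lower. Among them Ucp1 fell at day 1 (-5.45 ± 1.27, adjusted p = 0.0493), and Dio2 rose at day 1 (2.01 ± 0.45, 0.0442) and day 3 (2.00 ± 0.45, 0.0233). White adipocyte markers averaged between 10.1 and 11.7 on all arrays, with 0, 0 and 1 of 7 called, Adipoq, which was higher at day 7 (1.17 ± 0.35, 0.0388). The part of any of these marker lists in the folding result was not tested.

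The scaling of the arrays changed calls among large differences as well as small ones, among them those of Hsp90b1 and Pdia3 given above. The median of all genes at day 3 was 0.08 as deposited, -0.05 after quantile normalization and -0.11 after median centring, and at day 7 it was 0.09, -0.11 and -0.19. Of the calls among all genes 54.9% were higher at day 1, 39.3% at day 3 and 47.9% at day 7, against 66.3%, 23.1% and 20.6% with median centring and 62%, 29.8% and 23% with quantile normalization. Under median centring 6 members were called higher at day 3 against 10, with a folding median of 0.78. All genes had a median of -0.11 in that fit.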

How the data were processed

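The 12 Affymetrix arrays, 3 per time point, were hybridised with RNA from mouse vessels. The authors deposited log2 signals. Per the submitters' processing notes these came from Affymetrix Expression Console, and for its version, background step and normalization the sources used here give nothing. An older Affymetrix mouse array stands in the labels, but the identifiers are transcript clusters of another design. Of 65956 clusters, 31258 carried 1 symbol, 1492 several and 33206 none in the platform's annotation, after symbols were updated through RefSeq.

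Values were used as deposited. A gene was tested if 3 or more of its 12 signals were at or above 5.25, the 40th percentile of the clusters. Tests were run in R 4.3.3 with limma 3.58.1 (group means, all 12 arrays, empirical Bayes without trend, Benjamini-Hochberg over all genes, adjusted p under 0.05). Pearson r between arrays of a group was 0.969 to 0.993. With 3 arrays per group, precision is limited by their number. Values on every array are given for members that were called and for sensors and PERK arm genes, and up to 3 called genes in each direction may be named from a pathway list. The members and lists were chosen with earlier results of these data known. The alternatives tried were median-centred arrays and quantile normalization, a filter at the 60th percentile or none, averaging of the clusters of a gene, a robust variance trend, a replicate block, a covariate for the control-feature difference, a fit on the 6 arrays compared, and leaving out each array. RefSeq had no window for 3 members, Manf, Atf6 and Hyou1. Promoter letters were matched by a text search, and no protein sequences were used.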

Additional observations from a re-analysis of the deposited data

How the results depend on the processing

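The folding medians at days 1 and 3 kept their sign in the alternatives where they were recomputed. They were not recomputed with the robust variance trend, the replicate block, the control covariate or the 6 arrays compared. Quantile normalization gave 2 members higher at day 1, 1 lower at day 3, and 0 higher and 5 lower at day 7, with day 7 medians of -0.059 (folding) and -0.055 (PERK arm) and Hsp90b1 at -0.13. Median centring gave 2 higher at day 1, 6 higher and 1 lower at day 3, and 0 higher and 7 lower at day 7. Its medians were 0.78 (folding, day 3), -0.16 (PERK arm, day 3), -0.15 (folding, day 7) and -0.19 (PERK arm, day 7), and Herpud1 at day 3 read -0.059. Without a filter 1 was lower at day 7, and with variance trend 1 was lower at day 3. With the control covariate 9 were higher at day 1, 3 higher and 0 lower at day 7, and 1, Dnajc3, lower between days 7 and 3. At day 1 it added Hspa5, Hyou1 (adjusted p = 0.0378), Calr (0.0428), Canx (0.029), Pdia3 (0.0305) and Creld2 (0.0464) and lost Sdf2l1 (0.0687). At day 3 it added Dnajc3 (0.0452), Herpud1, Syvn1 (0.0301), Edem1 (0.0439) and Eif2ak3. It lost Sdf2l1, Dnajb9 and Chac1 (0.158) there. At day 7 it added Hspa5 (0.0399) and Herpud1 and lost Ssr1, Ern1 and Ppp1r15a (0.328). That fit turned the day 7 differences of P4hb (0.55), Dnajc3 (0.22), Herpud1 (0.92), Canx (0.60), Sel1l (0.40), Edem1 (0.58), Xbp1 (0.99), Sec61b (-0.019), Chac1 (-0.0037), Atf6 (0.13) and Atf4 (0.04), the day 3 differences of Atf6 (0.34), Atf4 (0.15) and Ddit3 (0.18), and the day 1 differences of Atf6 (0.25) and Syvn1 (0.12). Median centring turned Hyou1 (-0.18), Calr (-0.19), Pdia3 (-0.18), Dnajb9 (-0.12), Syvn1 (-0.25), Sec61b (-0.24), Eif2ak3 (-0.26), Ddit3 (-0.069), Chac1 (-0.11) and Asns (-0.072) at day 7, Sec61b (-0.055) at day 3 and Atf4 (-0.0066) at day 1. Quantile normalization turned Calr (-0.57), Pdia3 (-0.88), Syvn1 (-0.13), Sec61b (-0.22), Eif2ak3 (-8e-04) and Chac1 (-0.11) at day 7 and Sec61b (-0.028) at day 3. The mean of its clusters turned Ddit3 at day 1 (-0.025). On the 6 arrays compared 17 members were called at day 3, against 10 on all arrays, and 2 of them, Ern1 and Ppp1r15a, were lower. Added as higher were Calr (adjusted p = 0.027), Canx (0.0314), P4hb (0.0209), Dnajc3 (0.0307) and Edem1 (0.0402). At day 1 that fit added Pdia3 (0.0347) and Txndc5 (0.0293) and lost Sdf2l1 (0.151) and Dnajb11 (0.0616). At day 7 it called 0 higher and 0 lower. The causes were not tested.

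Leaving out each array gave 0 to 8 members higher and 0 to 1 lower at day 1, 4 to 13 higher and 0 to 1 lower at day 3, 0 to 3 higher and 0 to 5 lower at day 7, and 0 to 1 lower between days 7 and 3. Medians ran from -0.029 to 0.11 (PERK arm, day 3), -0.094 to 0.36 (folding, day 7) and -0.052 to 0.12 (PERK arm, day 7), and the day 7 differences of P4hb from -0.75 to 0.097, Herpud1 from -0.82 to 0.035, Hyou1 from -0.096 to 0.29, Calr from -0.093 to 0.33, Canx from -0.51 to 0.080, Pdia3 from -0.17 to 0.42, Dnajb9 from -0.12 to 0.34, Syvn1 from -0.034 to 0.11, Edem1 from -0.25 to 0.17, Sec61b from -0.037 to 0.11, Xbp1 from -0.54 to 0.32, Eif2ak3 from -0.055 to 0.086 and Ddit3 from -0.049 to 0.37. At day 1 the sign turned in Syvn1 (-0.093 to 0.063), Sec61b (-0.020 to 0.11), Atf6 (-0.16 to 0.13), Atf4 (-0.21 to 0.25) and Ddit3 (-0.053 to 0.22). Of 18 called differences 4 were called without each array, and 2 under every alternative. Genes outside the set were not recomputed this way.

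The replicate numbers were not taken to pair the arrays: over 18 pairs of same-numbered arrays the correlation of deviations ran from -0.51 to 0.66, with 7 over 0.1, and over 36 others from -0.65 to 0.46. Between days 1 and 7, which were not compared, the 3 same-numbered pairs had 0.36 to 0.66 and the 6 others -0.65 to 0.030. Between days 0 and 1, and between days 0 and 7, none of the 3 same-numbered pairs exceeded 0.1. With the replicate block 6 members were called at day 1 and 12 at day 3, 1 of the latter lower. It gave 3 higher and 7 lower at day 7, and 2 lower between days 7 and 3.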

Other observations

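Ddit3 had a second transcript cluster, which was used only in the fit that averaged the clusters of a gene. It read 7.98, 8.27 and 7.98 at day 0, 7.95, 7.76 and 8.06 at day 1, 7.93, 7.96 and 7.37 at day 3, and 7.71, 7.61 and 8.43 at day 7. At day 7 replicates 1 and 2 lay below all its day 0 arrays and replicate 3 above them, so the 2 clusters did not move alike.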
